A study of Mus musculus with 61 samples.

Results

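B cell identity and the germinal centre response are run by a small set of nuclear regulators. Here 9 of them were followed in NOD mice, in the lacrimal and the salivary glands. Only males were used, and according to the paper large leukocyte infiltrates form in their lacrimal glands. Disease of the salivary glands is rare in males, as the paper states. The 9 regulators were Pax5, Ebf1, Pou2af1, Spib, Aff3, Ikzf3, Bcl6, Bach2 and Irf8. They were taken by name, as the probe sets that carry one of these symbols and no other in the platform annotation. This gave 21 probe sets of the 45101 on the array, of which 34958 carry a single symbol and stand for 18194 genes. Where a gene had several, the probe set with the highest mean stands for it, and the others are given where they add to the result. In lacrimal glands 8 of the 9 genes were tested. Pax5 was left out because it stayed near background. In salivary glands 5 were tested, namely Ebf1, Pou2af1, Bcl6, Bach2 and Irf8.

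Ebf1 and Pax5 are DNA-binding factors that set up the B cell programme and hold it in place. Pou2af1, also known as OCA-B, is a coactivator that works with octamer-binding proteins at immunoglobulin and other B cell genes, and Spib is an Ets family factor of B cells and plasmacytoid dendritic cells. Aff3 is a nuclear protein of the AF4 family that is found in lymphoid cells, and Ikzf3 encodes Aiolos, an Ikaros family zinc finger protein of mature lymphocytes. Bcl6 is a repressor that germinal centre B cells and follicular helper T cells depend on. It is also made in many other cell types. Bach2 is a repressor that holds back plasma cell differentiation and is active in T cells as well, and Irf8 is an interferon regulatory factor of B cells, macrophages and dendritic cells. Signals through the lymphotoxin-beta receptor (LTBR) support the stromal cells and vessels that organise B cell follicles.

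All mice were male NOD. From 8 weeks of age some received an intraperitoneal injection each week of LTBR-Ig, the receptor's outer part fused to mouse immunoglobulin, which blocks the pathway, or of MOPC-21, a mouse control antibody, and others were left untreated. Lacrimal glands were profiled in untreated mice at week 8 and at weeks 14 and 16, each with 4 arrays, and at week 12 with 3, and in LTBR-Ig and MOPC-21 mice at weeks 12 and 16, again 4 per group. The salivary glands came from the same 8 groups, with 4 arrays for each apart from LTBR-Ig at week 12, which had 2. A lacrimal sample held both glands of a mouse, and a salivary sample held the combined glands after the cervical nodes had been removed. Values are log2 expression, and 4 was taken as the floor of detection. To be called, a gene had to differ at least 2-fold with an adjusted p (Benjamini-Hochberg over all probe sets tested, limma) under 0.05. Errors beside means are SD over arrays, and errors beside differences are standard errors from the fit.

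On each of the 61 arrays, 37.3% to 41.4% of probe sets lay above 4, and arrays of the same group correlated at 0.956 to 0.996. Over 10 salivary gland markers, the mean level was 12.23 to 14.43 in the salivary arrays. In lacrimal arrays at week 16 the same mean was 7.81 to 11.33 with LTBR-Ig, 3.77 to 6.08 with MOPC-21 and 4.15 to 9.80 without treatment, so LTBR-Ig and MOPC-21 did not overlap. Amy1, which encodes salivary amylase, lay above 8 in 8 of the 31 lacrimal arrays. These were LTBR-Ig replicates 3 and 4 and untreated replicates 1 and 2 at week 16, and LTBR-Ig replicates 1 and 2, MOPC-21 replicate 1 and untreated replicate 2 at week 12. The part of these transcripts in the results was not tested. Counts without the 8 arrays are given beside the treatment differences at week 16. Leaving them out does not even out the salivary markers, since every LTBR-Ig array of week 16 lay above every MOPC-21 array.

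The promoters of 4 of the regulators are shown because these genes carry the results that follow: Spib had the largest difference with LTBR-Ig, Pou2af1 the smallest adjusted p, Bach2 was lower than in both other groups at week 16 with no overlap and Bcl6 was not called. Each line holds the 250 bases before the RefSeq start of transcription, 5′ to 3′ on the strand of the gene, in GRCm38.p6, which is the C57BL/6J genome and not that of NOD. Spib is at chr7:44532072-44532321 on the minus strand, Pou2af1 at chr9:51213440-51213689 on the plus strand, Bach2 at chr4:32417185-32417434 on the plus strand and Bcl6 (the second of its entries) at chr16:23981284-23981533 on the minus strand. Capitals mark matches to the motifs searched.
Spib: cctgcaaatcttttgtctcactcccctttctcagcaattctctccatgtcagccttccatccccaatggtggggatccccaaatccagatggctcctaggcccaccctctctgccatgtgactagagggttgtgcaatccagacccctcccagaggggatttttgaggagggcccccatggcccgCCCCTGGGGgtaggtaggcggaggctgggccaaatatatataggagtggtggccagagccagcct
Pou2af1: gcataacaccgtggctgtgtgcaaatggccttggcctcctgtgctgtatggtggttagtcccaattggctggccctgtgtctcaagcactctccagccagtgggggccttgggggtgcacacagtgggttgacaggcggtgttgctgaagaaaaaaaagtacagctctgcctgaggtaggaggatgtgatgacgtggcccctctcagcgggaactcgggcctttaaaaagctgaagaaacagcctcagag
Bach2: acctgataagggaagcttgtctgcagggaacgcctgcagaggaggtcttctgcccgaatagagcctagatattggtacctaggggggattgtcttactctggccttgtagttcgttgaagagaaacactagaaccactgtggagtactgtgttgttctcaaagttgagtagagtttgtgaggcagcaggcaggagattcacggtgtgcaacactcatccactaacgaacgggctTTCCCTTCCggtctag
Bcl6: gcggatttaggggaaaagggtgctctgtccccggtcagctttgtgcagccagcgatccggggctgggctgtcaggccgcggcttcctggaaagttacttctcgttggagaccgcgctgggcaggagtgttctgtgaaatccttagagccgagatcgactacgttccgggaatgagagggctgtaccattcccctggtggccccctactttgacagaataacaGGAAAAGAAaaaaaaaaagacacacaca

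The motifs were searched on both strands and were the octamer ATGCAAAT, bound by the partners of Pou2af1, the Ebf core CCCNNGGG, the Ets-Irf composite GGAANNGAA, to which Spib or its relative PU.1 can bind together with Irf8, and the kappaB site GGACTTTCC. Of the 9 genes, 8 had an entry, with 11 entries in all, and no entry was held for Ikzf3. The capitals in Spib are 2 overlapping matches to the Ebf core, CCCCTGGG and CCCTGGGG, a motif that is its own reverse complement. They lie 65 to 57 bases before the start. In Bcl6 they are the Ets-Irf composite GGAAAAGAA, 28 to 20 bases before the start, and in Bach2 the same composite on the other strand, TTCCCTTCC, 16 to 8 bases before it. Pou2af1 is shown without a match, and the first entry of Bcl6, which is not shown, held none either. Over the 250 bases before the starts of 32851 promoters, the Ebf core was found in 11.8%, the Ets-Irf composite in 6.99%, the octamer in 1.6% and the kappaB site in 0.283%. Of the 11 entries, 3 held a match and 8 did not. These are matches of letters only.

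Between week 8 and week 16, untreated lacrimal glands gained transcripts of 7 of the 8 tested regulators, while Bcl6 fell. Of all probe sets tested, 12.1% rose and 4.49% fell by the same rule. The median difference of the 8 genes was 3.15, or 2.60 with the 4 genes that lay below the floor at week 8 counted from the floor, against -0.07 over all probe sets tested. Those 4, Spib, Pou2af1, Ikzf3 and Aff3, entered the test only through other groups. A rise over week 8 was thus partly built into their selection, in every comparison with week 8. The same holds for any listed gene that lay below the floor then. In whole glands, fewer cells of a type and less RNA per cell cannot be told apart, here and in every comparison that follows. The 14 measured markers of B cell surface and signalling all rose over the same time, with a median difference of 4.80, or 4.15 with 9 of them counted from the floor.

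Spib went from background to a high level. The arrays read 2.53, 2.53, 2.33 and 2.60 at week 8, 5.24, 5.32 and 8.63 at week 12, 8.06, 8.48, 6.73 and 8.57 at week 14, and 7.83, 7.95, 8.63 and 9.01 at week 16. Every later array lay above those of week 8, and at week 12 a single array was already at the level of week 16. The difference between weeks 16 and 8 was 5.86 ± 0.61 (adjusted p = 1.87e-08). Since no week 8 array of Spib, Pou2af1, Ikzf3 or Aff3 lay above the floor, their folds over week 8 are given as lower bounds, the later mean against the floor. For Spib the rise was at least 20.5-fold.

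Pou2af1 read 3.33, 3.49, 3.63 and 3.47 at week 8, 6.85, 6.64 and 8.56 at week 12, 8.37, 8.70, 7.78 and 8.54 at week 14, and 8.51, 8.45, 8.61 and 8.87 at week 16. Its week 16 arrays lay close together, and the groups of weeks 8 and 16 were far apart. The rise was 5.13 ± 0.39, or at least 24.4-fold (adjusted p = 1.14e-10). Ikzf3 followed the same course, with 1.91, 1.90, 2.53 and 2.28 at week 8 and 6.73, 6.88, 7.26 and 7.33 at week 16. It rose by 4.90 ± 0.52, or at least 8.28-fold (adjusted p = 2.43e-08). Aff3 read 2.33 to 2.81 at week 8 and 5.19 to 6.61 at week 16, a rise of 3.30 ± 0.49 (at least 3.80-fold, adjusted p = 4.36e-06).

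The remaining risers were already above or near the floor at week 8. Irf8, which macrophages and dendritic cells also carry, read 5.92, 6.08, 5.91 and 6.42 at week 8 and 9.01, 8.84, 9.22 and 9.28 at week 16, and rose 8.02-fold (95% interval on the log2 scale 2.24 to 3.77, adjusted p = 3.34e-07). Ebf1 read 3.72, 4.09, 4.10 and 4.06 at week 8 and 6.29, 5.67, 6.17 and 6.61 at week 16, a 4.56-fold rise (2.19 ± 0.44, adjusted p = 0.000198). Bach2 read 5.05, 4.68, 5.28 and 4.94 at week 8 and 6.88, 7.02, 6.95 and 7.46 at week 16, a 4.26-fold rise (2.09 ± 0.40, adjusted p = 0.000116). In each of these 3 genes the 2 weeks did not overlap. The share of all probe sets without overlap was not computed, here or in the other comparisons.

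Bcl6 went the other way. Its arrays read 8.51, 9.12, 9.19 and 9.31 at week 8 and 7.72, 8.03, 7.96 and 8.05 at week 16. All the week 16 arrays lay below all those of week 8. The fall was 1.09 ± 0.32 (2.13-fold, adjusted p = 0.00618). A second probe set of Bcl6 differed by -1.07 with overlapping groups (adjusted p = 0.0124). At week 14 the Bcl6 difference from week 8 was -0.79 (adjusted p = 0.0472, under the fold of 2), with 1 array at 9.54 and the other 3 at 7.78 to 7.87.

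By week 12, 6 of the 8 had risen, where 6.07% of all probe sets did, and the values were at least 10.2-fold for Pou2af1, at least 5.27-fold for Spib, at least 2.40-fold for Ikzf3, at least 1.51-fold for Aff3, 4.19-fold for Irf8 and 2.75-fold for Ebf1. The call of Aff3 used week 8 values below the floor, and its bound was under the fold of 2. Bach2 differed by 0.82 with an interval of -0.07 to 1.71 (adjusted p = 0.145), and its week 12 arrays were 5.39, 4.85 and 7.19. Replicate 4 was the highest of the 3 untreated week 12 arrays for each of the 7 risers, and the lowest for Bcl6. Without it 4 were called, and without replicate 3 the count was 7. By week 14, 7 of 8 had risen, Bach2 included at 3.58-fold, where 9.89% of all probe sets did. The comparisons of weeks 12, 14 and 16 share the week 8 arrays.

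**Figure D1:**
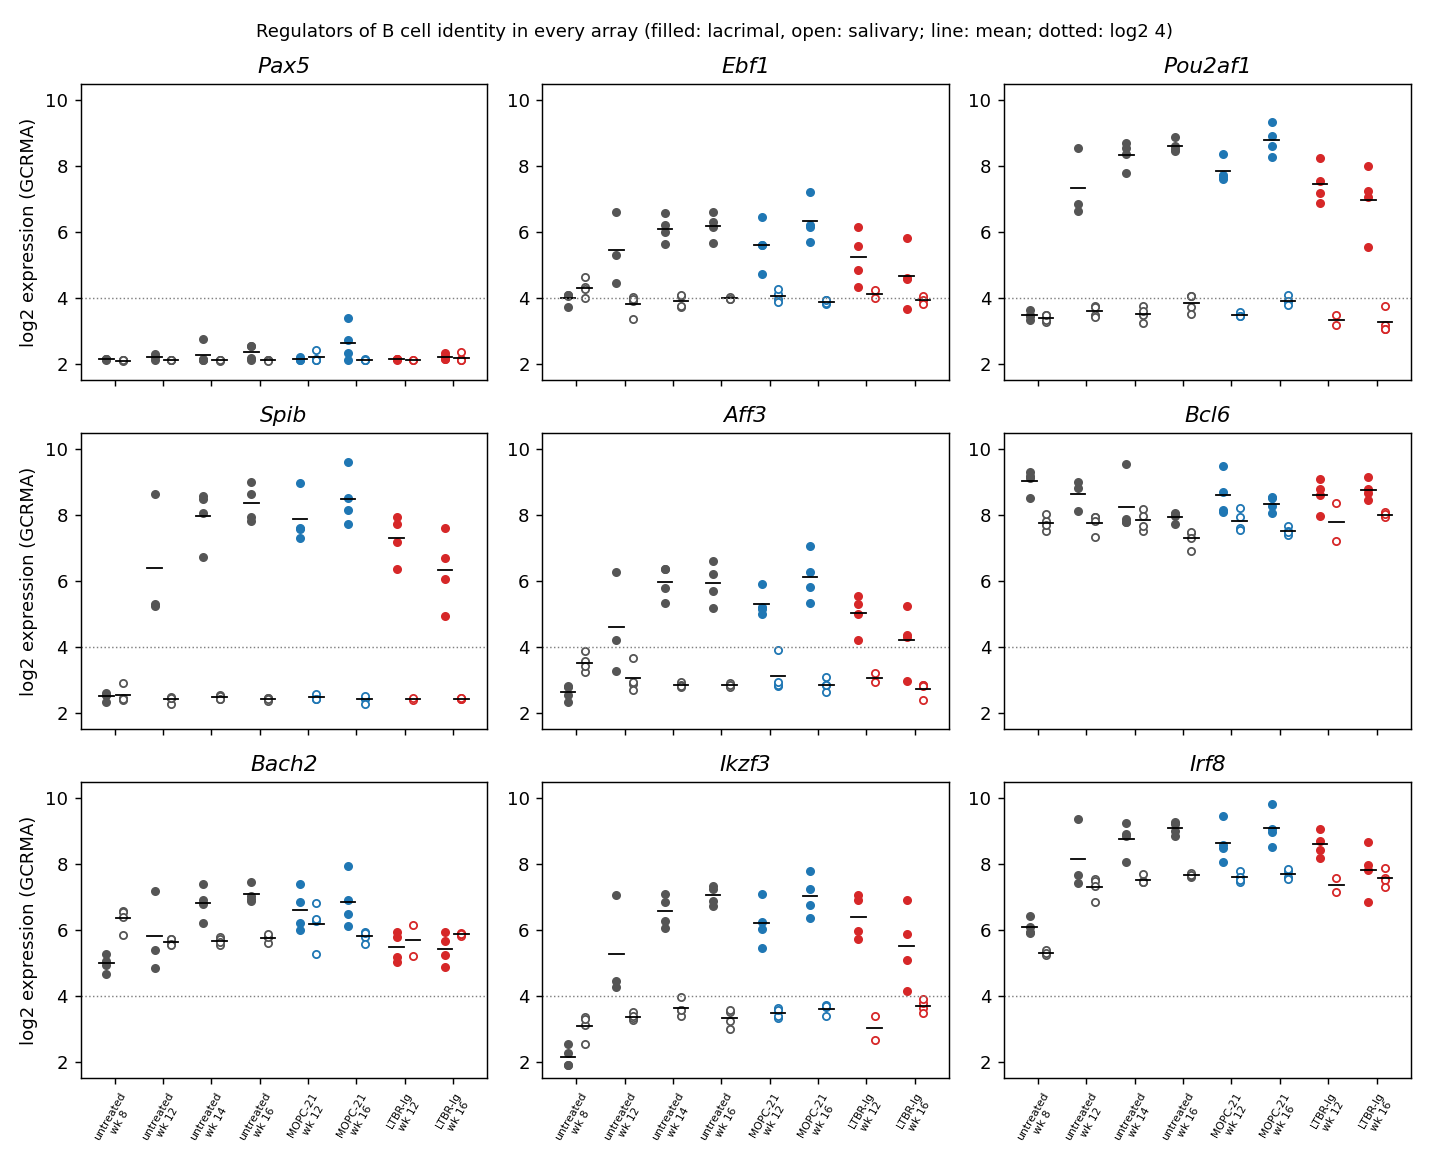
Log2 expression of the 9 regulators in every array, by treatment and week on the horizontal axis, with lacrimal glands as filled and salivary glands as open points, group means as lines and the floor of 4 dotted. Spib, Pou2af1, Ikzf3 and Aff3 leave the floor only in lacrimal glands, Pou2af1 apart from a few salivary arrays of up to 4.10, while Bcl6 lies between 6.91 and 9.54 in both glands and Pax5 never passes 3.39.

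Pax5, the defining factor of the B lineage, was below the floor in every array of both glands. The highest value was 3.39, in MOPC-21 replicate 3 at week 16, and the mean of that group was 2.64 ± 0.56 against 2.13 ± 0.01 in untreated glands at week 8. A second probe set of Pax5 reached 2.86 at most. Genes that Pax5 is known to activate were nonetheless measured: of 13 listed, 10 were tested in lacrimal glands and 10 rose between weeks 8 and 16, with a median difference of 4.05, or 3.03 with 4 of them counted from the floor. Ebf1, Bach2, Ikzf3, Irf8 and Spib are among these 10, and the list also overlaps the B cell markers. The level of Pax5 itself is not known from these probe sets beyond its lying near background.

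After 8 weeks of LTBR-Ig, 7 of the 8 tested regulators were lower in lacrimal glands than after MOPC-21, where 5.54% of all probe sets tested were lower by the same rule. Bcl6 was not. The median difference of the 8 was -1.59, against -0.05 over all probe sets tested. Against untreated glands of the same age 6 of 8 were lower, where 3.77% of all probe sets were, with a median of -1.59. The LTBR-Ig arrays are the same in both comparisons. Neither count stood under limma's posterior probability, the kind of rule the paper named, as given below.

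Among the regulators of B cell identity, Spib differed most. It read 7.60, 6.69, 4.93 and 6.06 with LTBR-Ig and 8.53, 7.74, 9.60 and 8.14 with MOPC-21. The groups did not overlap, although the highest LTBR-Ig array and the lowest MOPC-21 array were close. The difference was -2.18 ± 0.61, a 4.54-fold lower level (adjusted p = 0.0164), and it was -2.04 ± 0.61 against untreated glands (adjusted p = 0.0369).

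Pou2af1 read 8.01, 7.25, 5.54 and 7.05 with LTBR-Ig and 8.62, 8.26, 9.33 and 8.91 with MOPC-21. All LTBR-Ig arrays lay below all MOPC-21 arrays and also below the untreated ones, which read 8.45 to 8.87. The gene was 3.53-fold lower than with MOPC-21 (-1.82 ± 0.39, adjusted p = 0.00729) and 3.14-fold lower than without treatment (-1.65 ± 0.39, adjusted p = 0.0189). Aff3 read 5.25, 4.35, 2.98 and 4.30 with LTBR-Ig and 6.29, 5.33, 7.05 and 5.82 with MOPC-21. The groups were apart, with a difference of -1.90 ± 0.49 (3.74-fold, adjusted p = 0.0123), but the LTBR-Ig and untreated arrays of Aff3 overlapped (-1.71 ± 0.49, adjusted p = 0.0322).

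Ebf1 read 5.82, 4.58, 3.68 and 4.61 with LTBR-Ig and 6.22, 5.70, 7.21 and 6.15 with MOPC-21, and replicate 1 of the LTBR-Ig group fell inside the MOPC-21 range. It was 3.14-fold lower than with MOPC-21 (-1.65 ± 0.44, adjusted p = 0.0145). Of the 4 further probe sets of Ebf1, 3 were tested and lower, by 1.81, 1.03 and 1.05, and the first of these had groups that did not overlap. Ikzf3 read 6.92, 5.89, 4.16 and 5.09 with LTBR-Ig and 7.23, 6.36, 7.79 and 6.76 with MOPC-21. Here too replicate 1 of the LTBR-Ig group lay within the MOPC-21 range. Ikzf3 was 2.88-fold lower than with MOPC-21 (-1.53 ± 0.52, adjusted p = 0.0367), and the difference from untreated glands, -1.54 ± 0.52, did not pass (adjusted p = 0.0552). A second probe set of Ikzf3 was not called in either comparison (-0.81 and -0.95).

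Of the germinal centre and effector regulators, Bach2 was the clearest. It read 5.94, 5.67, 4.89 and 5.23 with LTBR-Ig, 6.92, 6.11, 7.95 and 6.47 with MOPC-21, and 6.88, 7.02, 6.95 and 7.46 without treatment. The LTBR-Ig arrays lay below both other groups. Bach2 was 2.70-fold lower than with MOPC-21 (-1.43 ± 0.40, adjusted p = 0.0172) and 3.13-fold lower than without treatment (-1.65 ± 0.40, adjusted p = 0.0206). Its second tested probe set gave -1.72 and -1.88, called in both comparisons and also without overlap. Irf8 read 8.66, 7.83, 6.85 and 7.96 with LTBR-Ig and 9.05, 8.51, 9.83 and 8.98 with MOPC-21, and replicate 1 of the LTBR-Ig group overlapped the MOPC-21 range. Irf8 was 2.41-fold lower (-1.27 ± 0.37, adjusted p = 0.0205), and a second probe set gave -0.88, which was not called (adjusted p = 0.0659).

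Bcl6 read 8.66, 9.14, 8.80 and 8.46 with LTBR-Ig and 8.27, 8.54, 8.53 and 8.05 with MOPC-21. Replicate 4 of the LTBR-Ig group lay within the MOPC-21 range. The difference was 0.42 with an interval of -0.24 to 1.09 (adjusted p = 0.334), so a 2-fold fall lay outside the interval. Against untreated glands, which read 7.72 to 8.05, all the LTBR-Ig arrays were higher, by 0.83 with an interval of 0.16 to 1.49, and the difference did not pass the test (adjusted p = 0.0924). A second probe set gave 0.40 and 0.83, neither of them called.

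**Figure D2:**
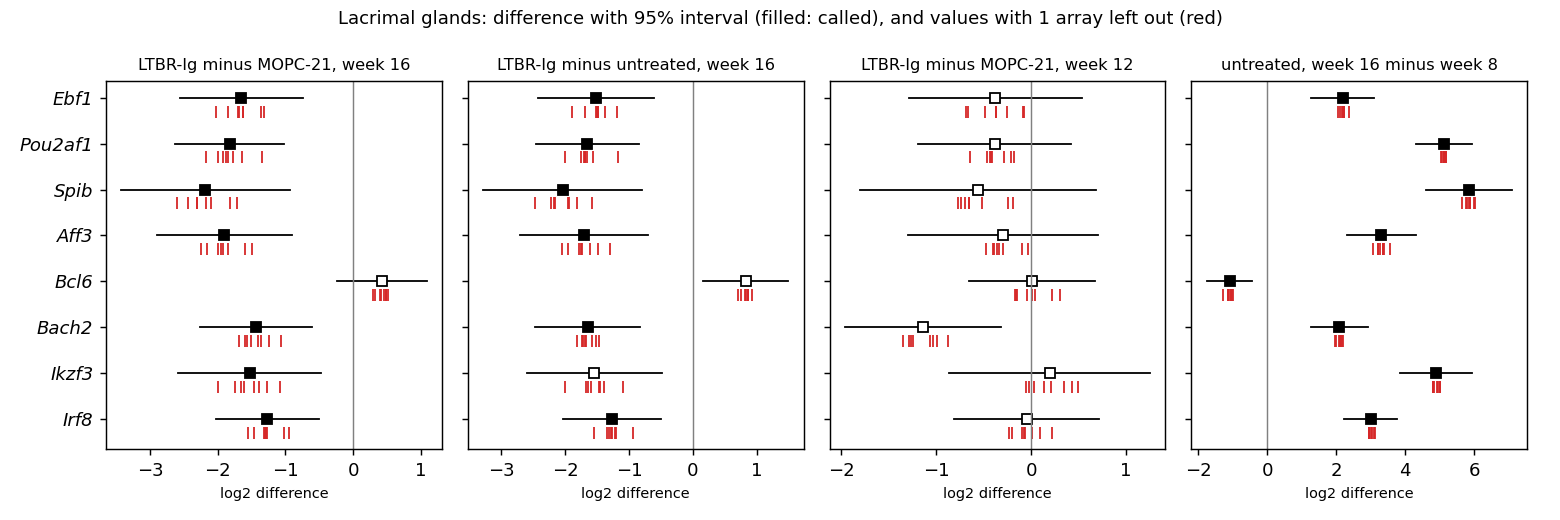
Log2 differences in lacrimal glands for the 8 tested regulators in 4 comparisons, with 95% intervals, filled squares for called genes and red ticks for the value with 1 array left out in turn. With LTBR-Ig against MOPC-21 at week 16 the squares of 7 genes lie between -2.18 and -1.27 and that of Bcl6 at 0.42, and no red tick of these genes crosses 0.

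Which of these calls stood depended on single arrays, on the arrays in the fit, on the calling rule and on the glands rich in Amy1. The paper called genes by a fold of 2 and a posterior probability under 0.05. By limma's posterior probability of no change, 0 were called against either MOPC-21 or untreated glands. Without MOPC-21 replicate 3, 0 of the 7 genes were called against MOPC-21, and without LTBR-Ig replicate 3 only Pou2af1 was. MOPC-21 replicate 3 had the highest and LTBR-Ig replicate 3 the lowest B cell marker mean of their groups (9.19 and 4.75). When the fit held just the 8 arrays of these 2 groups, 0 were called, with adjusted p of 0.0567 to 0.0995 for the 7 genes and the same differences. Without the 8 lacrimal arrays with Amy1 above 8, which leaves 2 LTBR-Ig arrays at week 16, 0 were called, and the differences were -1.36 for Spib, -1.32 for Aff3, -1.15 for Pou2af1, -1.12 for Ebf1, -1.06 for Bach2, -0.85 for Irf8 and -0.64 for Ikzf3. The part of the salivary gland transcripts in the fall was not tested. The direction of the 7 differences against MOPC-21 was the same without any single array of these groups, with a range of -2.61 to -1.72 for Spib and -1.55 to -0.94 for Irf8. Against untreated glands the count of 6 became 0 without untreated replicate 4, 0 without LTBR-Ig replicate 3, 1 without LTBR-Ig replicate 4, 2 without LTBR-Ig replicate 2, 2 without untreated replicate 3, 3 without untreated replicate 2 and 0 without the arrays rich in Amy1.

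**Figure D3:**
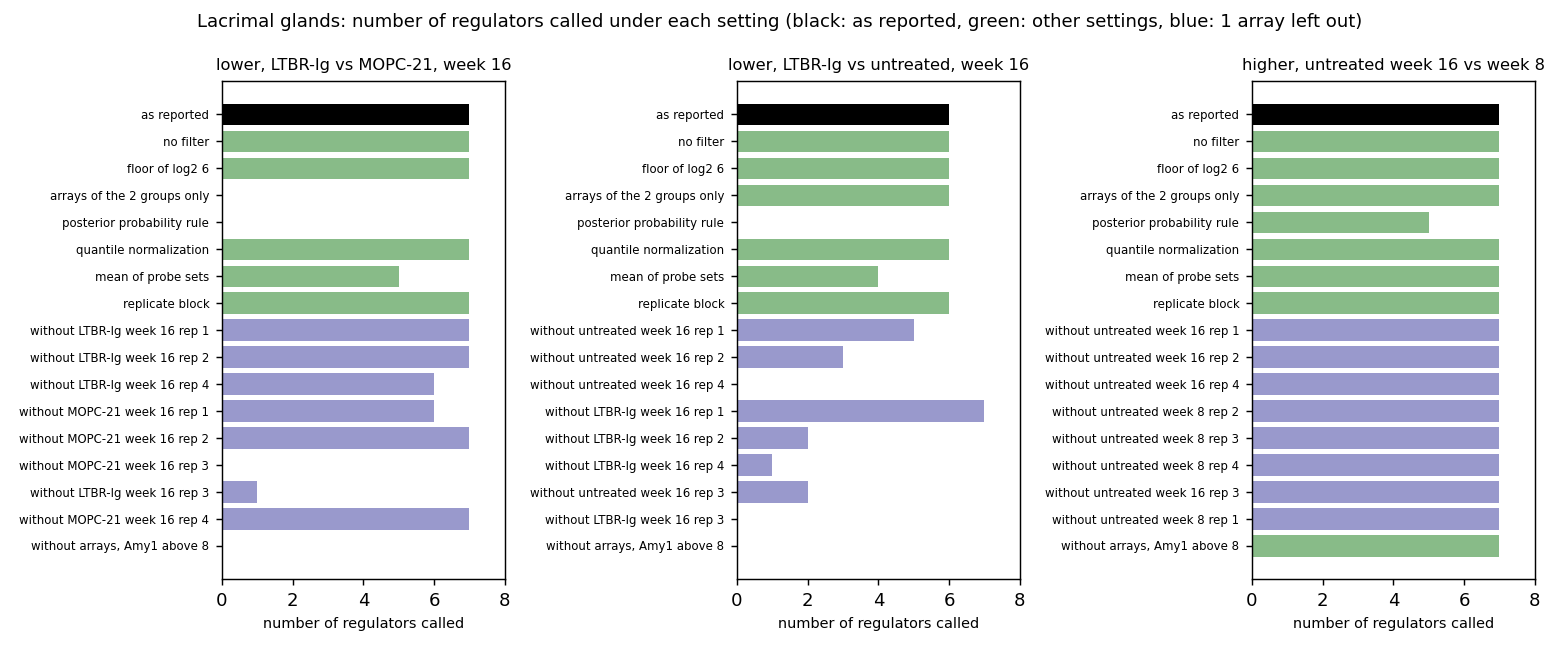
Number of regulators called under each way of processing the data, as horizontal bars from 0, for LTBR-Ig against MOPC-21 and against untreated glands at week 16 and for untreated week 16 against week 8. The 2 treatment counts of 7 and 6 fall to 0 under several settings, while the count of 7 between weeks 8 and 16 is 5 or more under each of them.

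MOPC-21 itself left the regulators near their untreated levels at week 16. None of the 8 was called, as for 0% of all probe sets, and none of the 8 reached an unadjusted p under 0.05 in limma, where 21 probe sets in all did so at a fold of 2. The differences ran from -0.22 for Bach2 to 0.40 for Bcl6. The Bcl6 arrays of MOPC-21 (8.05 to 8.54) lay just above the untreated ones (7.72 to 8.05), with an interval of -0.26 to 1.07.

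After 4 weeks of treatment, none of the 8 regulators was called in limma in either comparison, and 1 in each reached an unadjusted p under 0.05. The rule called lower 0.0349% of all probe sets against MOPC-21 and 0.00498% against untreated glands. Bach2 came nearest. It read 5.78, 5.94, 5.03 and 5.17 with LTBR-Ig and 6.84, 6.23, 5.99 and 7.40 with MOPC-21, which did not overlap, and the difference was -1.14 ± 0.40 (unadjusted p = 0.00875, adjusted p = 0.372). Its second probe set gave -1.08, again without overlap (adjusted p = 0.446). Against untreated glands at week 12, whose arrays were 5.39, 4.85 and 7.19, the Bach2 difference was -0.33 with an interval of -1.22 to 0.56. Ikzf3 lay on the other side, with 6.90, 7.05, 5.71 and 5.96 in LTBR-Ig glands against 4.47, 4.27 and 7.05 in untreated ones, which overlapped (1.14, unadjusted p = 0.0496, adjusted p = 0.748). The intervals at week 12 were wide, for Spib -1.80 to 0.69 against MOPC-21.

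Whether the treatment difference itself grew between weeks 12 and 16 was tested as an interaction. None of the 8 regulators passed in limma, as for 0% of all probe sets, while 4 of the 8 had an unadjusted p under 0.05 and 3126 of the 20077 probe sets did. The values were -1.72 ± 0.73 for Ikzf3, -1.60 ± 0.69 for Aff3, -1.44 ± 0.56 for Pou2af1 and -1.22 ± 0.53 for Irf8, with adjusted p of 0.307 to 0.312. For Bach2 the change was -0.29, with an interval of -1.46 to 0.87.

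Treated glands of week 16 were also set against untreated glands of week 8, the age at which the injections began. With LTBR-Ig, 5 of the 8 regulators were above that starting level, where 6.06% of all probe sets were: Pou2af1 at least 7.78-fold, Spib at least 4.99-fold, Ikzf3 at least 2.85-fold, Aff3 at least 1.17-fold and Irf8 3.35-fold. Aff3 averaged 4.22 with LTBR-Ig, close to the floor. Its call used week 8 values below the floor, and its bound was under the fold of 2. The other 3 were not called. Ebf1 differed by 0.68 (interval -0.23 to 1.59), Bach2 by 0.44 (-0.38 to 1.27) and Bcl6 by -0.27 (-0.93 to 0.40). Of these, Ebf1 and Bach2 had risen in untreated glands over the same time and Bcl6 had fallen. This comparison uses LTBR-Ig and week 8 arrays that also stand in the comparisons above.

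The salivary glands of the same strain held few of these transcripts. Spib read 2.26 to 2.90, Aff3 2.40 to 3.90 and Ikzf3 2.55 to 3.98 over all 30 salivary arrays, all below the floor. These 3 entered the fit of both glands only through lacrimal arrays, so a higher lacrimal level was partly built into their selection. In untreated glands at week 16, 7 of the 8 regulators were higher in lacrimal than in salivary glands. Of all 21626 probe sets tested, 2578 were higher in lacrimal glands and 2472 lower, 23.4% in either direction. Against the floor, since no salivary array of that group lay above it, the values were at least 20.5-fold for Spib, at least 8.28-fold for Ikzf3 and at least 3.80-fold for Aff3. Pou2af1 differed by 4.77 and Ebf1 by 2.19, with salivary arrays at the floor, 2 of 4 above it for Pou2af1 and 1 of 4 for Ebf1. Irf8 was 2.69-fold and Bach2 2.48-fold higher. Bcl6 was higher by 0.65 (adjusted p = 0.0407), short of the fold of 2. At week 8 the order was different. Then 2 of 8 differed by the rule, where 18.8% of all probe sets did, with Bcl6 higher in lacrimal glands (9.03 ± 0.36 against 7.77 ± 0.22, a difference of 1.27, adjusted p = 0.00011) and Bach2 lower (4.99 ± 0.25 against 6.35 ± 0.34, a difference of -1.36, adjusted p = 0.000491, n = 4 arrays in each group). The 2 week 8 calls became 1 with the mean of all probe sets of a gene and 0 when calls were made on limma's posterior probability.

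Irf8 was the exception in the salivary glands. Its arrays read 5.33, 5.26, 5.39 and 5.29 at week 8, 7.55, 7.48, 6.84 and 7.35 at week 12, 7.70, 7.47, 7.49 and 7.46 at week 14, and 7.72, 7.60, 7.64 and 7.66 at week 16. Every array from week 12 on lay above those of week 8, and the later groups lay close to one another. The rise to week 16 was 2.34 ± 0.13 (5.06-fold, adjusted p = 1.63e-13), and Irf8 was the only one of the 5 tested regulators that rose by the rule, where 4.29% of all probe sets did. Of the listed genes outside the 9, Jchain and Amy1 rose over the same weeks. Jchain, which joins the chains of secreted antibody, was 2.47 to 8.13 at week 8 and 9.65 to 10.46 at week 16, the only 1 of 6 tested plasma cell genes that rose (5.58, adjusted p = 3.39e-07). Amy1 rose by 3.93 (adjusted p = 0.00455). It was 4.58 to 5.56 at week 8 and spread widely at week 16, from 7.36 to 14.19 (mean 9.20 ± 3.33). Of the 5 macrophage and dendritic cell markers tested in salivary glands, 0 were called and their median difference was -0.28, and the 2 B cell markers tested were not called either. The mean over the 14 B cell markers was 2.99 to 3.97 at week 8 and 3.02 to 3.12 at week 16. All 9 T cell markers with a probe set stayed too low to be tested. Col1a1, a collagen of stromal cells, went from 9.86 to 7.11 over the same weeks, and 3 of 7 adipocyte and stromal markers fell. Pou2af1 differed by 0.45 (adjusted p = 0.0199) and Bach2 by -0.58 (adjusted p = 0.0388), both under the fold of 2.

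With LTBR-Ig against MOPC-21 in salivary glands at week 16, none of the 5 tested regulators was called in limma, where 0.0357% of all probe sets were, and 2 had an unadjusted p under 0.05. Pou2af1 read 3.17, 3.75, 3.07 and 3.05 with LTBR-Ig and 3.91, 4.10, 3.90 and 3.78 with MOPC-21. The groups did not overlap, but nearly all values lay below the floor, and the difference of -0.66 ± 0.15 did not pass (unadjusted p = 0.000118, adjusted p = 0.0926). Bcl6 read 8.01, 8.10, 7.93 and 8.02 with LTBR-Ig and 7.66, 7.40, 7.52 and 7.48 with MOPC-21. All LTBR-Ig arrays were higher, by 0.50 ± 0.20 (unadjusted p = 0.0168, adjusted p = 0.726). For Irf8 the difference was -0.12, with an interval of -0.39 to 0.15.

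The treatment difference was compared between the glands in a fit of all 61 arrays. Of the 8 regulators 3 passed, where 4.41% of all probe sets did: the LTBR-Ig difference was lower in lacrimal than in salivary glands by 2.21 ± 0.64 for Spib (adjusted p = 0.0385), by 1.78 ± 0.54 for Aff3 (adjusted p = 0.0471) and by 1.71 ± 0.48 for Ebf1 (adjusted p = 0.0343). In salivary glands at week 16 no LTBR-Ig or MOPC-21 array of Spib or Aff3 lay above the floor, and for Ebf1 1 of 4 LTBR-Ig and 0 of 4 MOPC-21 arrays did, so no fall could be seen there for any of the 3. Pou2af1, Bach2, Ikzf3 and Irf8 did not pass, with adjusted p of 0.0529 to 0.0994, and Bcl6 gave -0.08 with an interval of -0.86 to 0.70. This count was 0 without the lacrimal arrays rich in Amy1, 0 with no filter on low values and between 0 and 7 with 1 array left out.

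Across the 31 lacrimal arrays, 7 of the regulators rose and fell with the B cell markers. The mean of 14 B cell surface and signalling markers correlated with Spib at r = 0.989, Irf8 at 0.989, Ikzf3 at 0.978, Pou2af1 at 0.975, Aff3 at 0.967, Ebf1 at 0.919 and Bach2 at 0.860. After group means were taken out the values were 0.911 to 0.965. Bcl6 had r = -0.484 with the marker mean, and -0.047 after group means were taken out. Among themselves the 7 genes correlated at 0.790 to 0.984, and Bcl6 with them at -0.502 to -0.421. These are descriptions over arrays that share the glands and their infiltrate, and they fall into the groups of the study. Correlations of the regulators with markers of other cell types were not computed. The T cell mean moved in the same order, with 2.90 untreated at week 8, 4.47 with LTBR-Ig and 5.83 with MOPC-21 at week 16. For macrophage and dendritic cell markers these means were 3.87, 5.04 and 5.82.

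**Figure D4:**
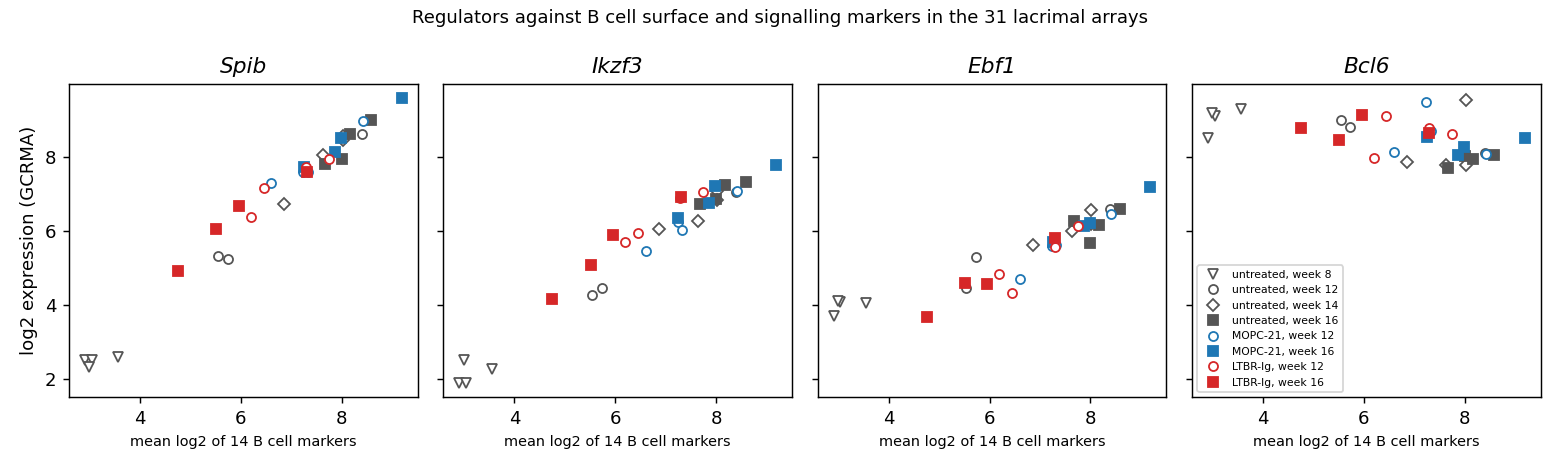
Log2 expression of Spib, Ikzf3, Ebf1 and Bcl6 against the mean log2 level of 14 B cell surface and signalling markers, a point for each of the 31 lacrimal arrays, by treatment (colour) and week (shape, filled at week 16). Spib and Ikzf3 climb with the markers (r = 0.989 and 0.978), and Bcl6 does not (r = -0.484).

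Set against the B cell marker mean of the same array, the regulators kept different distances. The marker mean was 4.75 to 7.30 with LTBR-Ig and 7.25 to 9.19 with MOPC-21 at week 16. Spib minus the marker mean averaged 0.44 with LTBR-Ig and 0.43 with MOPC-21, so its distance from the markers was about the same in both. Ikzf3 lay -0.59 to -0.07 from the marker mean with LTBR-Ig and -1.40 to -0.75 with MOPC-21, which did not overlap. For Irf8 the average was 1.94 against 1.02, for Bach2 -0.45 against -1.21, for Ebf1 -1.21 against -1.75, for Pou2af1 1.08 against 0.71 and for Aff3 -1.66 against -1.95. For Bcl6 it was 2.89 against 0.27. The distances of Irf8, Ebf1 and Bcl6 did not overlap between the groups either, while those of Spib, Pou2af1, Bach2 and Aff3 did. Since the marker mean was lower with LTBR-Ig, any probe set that fell less than the markers gained distance. For Bcl6, which was not lower, the gain mostly repeats the fall of the markers. The share of all probe sets whose distances did not overlap was not computed. No test was run on these distances, and the levels of different probe sets cannot be compared with each other.

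The genes whose pattern over the 31 lacrimal arrays was most like each regulator were the 2 others with the highest Pearson's r among all tested genes. Spib was most like Ncf1, a subunit of the phagocyte oxidase (r = 0.994), and Ikzf1, which encodes Ikaros (0.993). Pou2af1 was most like H2-Ob, a chain of the class II accessory molecule DO (0.991), and Btla, an inhibitory receptor of lymphocytes (0.991). The nearest to Ikzf3 were Wdfy4 (0.990) and Lpxn (0.989), and to Irf8 Cotl1 and Mbnl1 (0.990 each). Ebf1 had Map4k1 (0.972) and Stk4 (0.964), Aff3 had Grk6 (0.977) and Mycbp2 (0.974), and Bach2 had Cdkn2d (0.957) and Ikbkb (0.954). No gene came close to Bcl6, whose nearest were D130037M23Rik (0.692) and D630039A03Rik (0.686).

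Other genes of the B cell programme were read from fixed lists. In LTBR-Ig against MOPC-21 lacrimal glands at week 16, 13 of 14 B cell surface and signalling markers were lower, with a median of -2.25. The largest differences were those of Cxcr5, the receptor that draws B cells to follicles (-2.92), Fcer2a, which encodes CD23 (-2.63), and the kinases Btk (-2.61) and Blk (-2.49). Of 17 other transcription factors of the B lineage 7 were lower, with a median of -0.88, among them Hhex (-2.64), Klf2 (-2.08), Ikzf1 (-1.82) and Spi1, which encodes PU.1 (-1.76). Several of these factors act in T cells and myeloid cells too. Of the 10 tested genes activated by Pax5, 9 were lower, 5 of which are regulators described above. This list also overlaps the B cell markers, so the counts are not separate.

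Germinal centre and plasma cell genes were read in the same comparison. Of 8 tested germinal centre genes, 3 were lower than with MOPC-21, with a median of -0.47: Il21, a cytokine of helper T cells (-1.36), Cd86, a costimulatory ligand (-1.28), and Il21r (-1.24). These 3 are not confined to germinal centres, and 0 of the 8 were called against untreated glands in limma. Of 8 tested plasma cell genes 3 were lower, with a median of -0.23, namely Irf4 (-1.98), Mzb1 (-1.92) and Jchain (-1.20). Irf4, a regulator of plasma cells and activated lymphocytes, averaged 4.32 ± 0.90 with LTBR-Ig and 6.30 ± 0.43 with MOPC-21 (adjusted p = 0.00671, n = 4 arrays in each group). Prdm1, which encodes Blimp-1 and which Bach2 and Bcl6 are known to repress, averaged 4.69 ± 0.73 and 5.20 ± 0.34 and was not called (adjusted p = 0.206). Between weeks 8 and 16 in untreated glands, Prdm1 rose by 2.29 and Irf4 by 3.81, both from below the floor.

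Markers of other cells that share these regulators changed in the same comparison. Of 8 T cell markers 6 were lower with LTBR-Ig than with MOPC-21, with a median of -1.48, for example Cd3d (-1.87) and Cd4 (-1.60). The mean over the T cell list was 3.85 to 5.15 with LTBR-Ig and 5.29 to 6.45 with MOPC-21. Of 9 macrophage and dendritic cell markers 4 were lower, with a median of -0.66, namely Lyz2 (-1.89), Itgax (-1.85), Flt3 (-1.62) and Cd68 (-1.47). None of 7 adipocyte and stromal markers was called in limma. Of 10 salivary gland markers 8 were higher, with a median of 4.80. What each cell type contributed to the levels of Irf8, Bach2, Ikzf3 and Bcl6 was not tested.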

How the data were processed

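Gene expression was measured on Affymetrix mouse arrays in 31 lacrimal and 30 salivary gland samples. The deposited values are log2 expression, which the authors made in R by GCRMA (version not given) over the whole set. They were used as deposited. Of 45101 probe sets, 34958 had 1 gene symbol, 932 had several and 9211 were not listed, and only the first were named.

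limma 3.58.1 (R 4.3.3) gave each group a mean, with an intensity trend, in a fit of all arrays of a tissue, or of both tissues where glands were compared. A probe set was tested if at least 2 arrays of some group exceeded 4, which left 20077 in lacrimal glands, 19617 in salivary glands and 21626 in the joint fit. Calls needed a fold of 2 and a Benjamini-Hochberg adjusted p under 0.05, interactions the adjusted p alone. The text names the 9 genes, up to 4 called genes of a list, any a result turns on and the 2 closest in pattern. The genes, lists and tests were chosen with earlier results of these data known. Alternatives were no filter, a floor of 6, a fit of the compared groups alone, limma's posterior probability, quantile normalization, the mean of a gene's probe sets, the replicate number as a block and leaving out each array. A further one, without lacrimal arrays with Amy1 above 8, was chosen after seeing the data. The fits were tested on simulated data. No 2 arrays held identical values. The methods call the lacrimal replicates biological, and for salivary glands p-values may measure technical spread. The number of arrays limits the precision.

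Same-numbered arrays of different groups did not deviate together throughout. Their correlations ran from -0.509 to 0.511, and in no comparison were all of them over 0.1. Some pairs did deviate together. Between LTBR-Ig and MOPC-21 lacrimal glands at week 12 the values were 0.511 for number 3 and 0.359 for number 1. For numbers 2 and 4 they were -0.212 and -0.269. Promoter sequences are those of RefSeq (GRCm38.p6).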

Additional observations from a re-analysis of the deposited data

Results flagged for a closer look

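Of 126 sets of 4 arrays (a gene in a group), 17 had an array whose distance from its neighbour took up more of the whole range than the 95% critical value of Dixon's test allows, 6 in lacrimal and 11 in salivary glands. Chance gives about 1 in 20. In 9 of the 17 the whole range was under 0.5 on the log2 scale, and in 10 all values lay below the floor of 4.

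Bcl6 had the widest such gap among the genes above the floor: in untreated lacrimal glands at week 14, replicate 2 read 9.54 and the others 7.78 to 7.87 (gap 0.950 of the range). In lacrimal MOPC-21 glands at week 12, replicate 4 was the highest for Pou2af1 (0.830) and Spib (0.830), and replicate 1 was the lowest for Ebf1 in untreated glands at week 8 (0.893). For Irf8 in untreated salivary glands at week 14, replicate 1 was the highest (0.883). For Ebf1 in untreated salivary glands the gap was 0.831 at week 12 (replicate 3, lowest) and 0.871 at week 16 (replicate 3, highest). For Pou2af1 in salivary LTBR-Ig glands at week 16, replicate 2 was the highest (0.832).

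The rest lay wholly below the floor. So did the Pou2af1 set in salivary LTBR-Ig glands at week 16 (3.05 to 3.75), and the Ebf1 sets above lay on both sides of the floor. For Pax5 the gaps were 0.837 (lacrimal MOPC-21, week 12), 0.980 (lacrimal untreated, week 14), 0.926 (salivary LTBR-Ig, week 16), 0.942 (salivary MOPC-21, week 12) and 0.831 (salivary MOPC-21, week 16). For Spib they were 0.900 (salivary MOPC-21, week 12) and 0.870 (salivary untreated, week 8), and for Aff3 0.892 (salivary LTBR-Ig, week 16) and 0.874 (salivary MOPC-21, week 12).

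The difference of LTBR-Ig minus MOPC-21 at week 16 differed between lacrimal and salivary glands for Ebf1 (-1.71), Spib (-2.21) and Aff3 (-1.78), by limma's interaction term at an adjusted p of 0.0343, 0.0385 and 0.0471. In salivary glands no LTBR-Ig or MOPC-21 array of Spib or Aff3 at week 16 lay above the floor, and for Ebf1 1 of 4 LTBR-Ig and 0 of 4 MOPC-21 arrays did.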

How the results depend on the processing

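The 7 regulators called lower with LTBR-Ig than with MOPC-21 at week 16 became 0 in a fit of the compared groups alone, 0 by limma's posterior probability and 0 without the arrays with Amy1 above 8. With 1 array left out the count was 0 to 7. The 6 called against untreated glands became 0 by the posterior probability and 0 without the arrays with Amy1 above 8, and 0 to 7 with 1 array left out. The 6 risers at week 12 became 3 by the posterior probability (4 to 7 with 1 array left out). The 5 regulators above the week 8 level with LTBR-Ig became 3 (4 to 5). The 2 differences between glands at week 8 became 0 by the posterior probability and 1 with the mean of a gene's probe sets (2 to 3). The 3 differences in treatment effect between glands became 0 with no filter, 0 in a fit of the compared groups alone, 0 by the posterior probability and 0 without the arrays with Amy1 above 8 (0 to 7). Some of these settings hold fewer arrays, and the cause of the changes was not tested for any of them. The 7 risers at weeks 14 and 16 and the single salivary riser kept to within 1.5 times their counts under each alternative run. The replicate number as a block changed no call, with 7, 6, 6, 7, 7 and 5 in the lacrimal comparisons above and 3 between glands.

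At week 12 against MOPC-21, differences near 0 changed sign. For Ikzf3 the value was -0.36 without the arrays with Amy1 above 8 and -0.0497 to 0.49 with 1 array left out, for Irf8 0.0234 with the mean of its probe sets and -0.24 to 0.23, and for Bcl6 -0.16 to 0.30. The Bcl6 difference in treatment effect between glands was 0.0579 without the arrays with Amy1 above 8 and -0.20 to 0.0227 with 1 array left out.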
